A study of Mus musculus with 18 samples.

Results

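The 9 livers with high expression of 4 target genes of the nuclear receptor PPARA were set against the 9 livers with low expression, among 18 livers in all. Each liver was scored by the mean log2 level of Cyp4a14, Cyp4a10, Acot1 and Acot3, and within each diet the 3 highest scores of 6 made the high-score group and the 3 lowest the low-score group. The members were thus chosen by the measured levels of these 4 genes. The high-score and the low-score livers were 3 and 3 on the control diet, 3 and 3 on 0.05% quercetin and 3 and 3 on 1% quercetin. All came from male mice (C57BL/6J in the growth protocol, C56BL/6J in the strain label) with no named mutant allele, 5 weeks old when the diets began, that ate AIN-93G diet, alone or with quercetin, a plant flavonol, for 20 weeks. The mice were housed 3 to a cage, and the labels do not tie an array to a cage. RNA of whole liver was measured on 1 Affymetrix array per mouse, so that p-values measure the spread between these mice.

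PPARA is a receptor that binds fatty acids and, paired with RXRA, switches on genes of fatty acid uptake, oxidation in peroxisomes and mitochondria, and ketone body synthesis in the liver, above all in fasting. Cyp4a14 and Cyp4a10 are omega-hydroxylases of fatty acids. Acot1 and Acot3 are thioesterases that release fatty acids from coenzyme A in the cytosol and in peroxisomes. The score is a level of mRNA, and the activity of the receptor was not measured.

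Hepatocyte transcripts were high on all 18 arrays, with log2 levels of albumin (Alb) between 13.04 and 13.69 and of Hnf4a, a hepatocyte transcription factor, between 11.33 and 12.38. Of 45101 probe sets, 34945 named 1 gene, and 12885 genes were bright enough to test. Levels are log2 of the deposited intensity plus 16 after each array's median was equalised. Genes were tested above a mean of 4.69, and levels near or below that lie close to the floor of this scale. Where many livers are there, differences rest on the livers that rise above it. The number of arrays limits the precision. In whole liver, fewer cells of a type and less RNA per cell cannot be told apart.

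On the control diet the score was 10.76, 8.83 and 8.71 in the high-score livers, against 8.60, 8.25 and 7.71 in the low-score livers. On 0.05% quercetin it was 10.94, 10.59 and 10.44 in the high-score livers, against 10.36, 8.97 and 7.66 in the low-score livers. On 1% quercetin it was 10.55, 10.55 and 10.38 in the high-score livers, against 10.04, 9.53 and 9.25 in the low-score livers. The gap between the lowest high-score and the highest low-score liver was 0.10, 0.08 and 0.34 in the 3 diets, so on the control diet and on 0.05% quercetin the border ran between livers of nearly the same score. The 2 lower high-score livers on the control diet were closer to their low-score group than to replicate 3, and the low-score replicate 6 on 0.05% quercetin was closer to its high-score group.

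**Figure D1:**
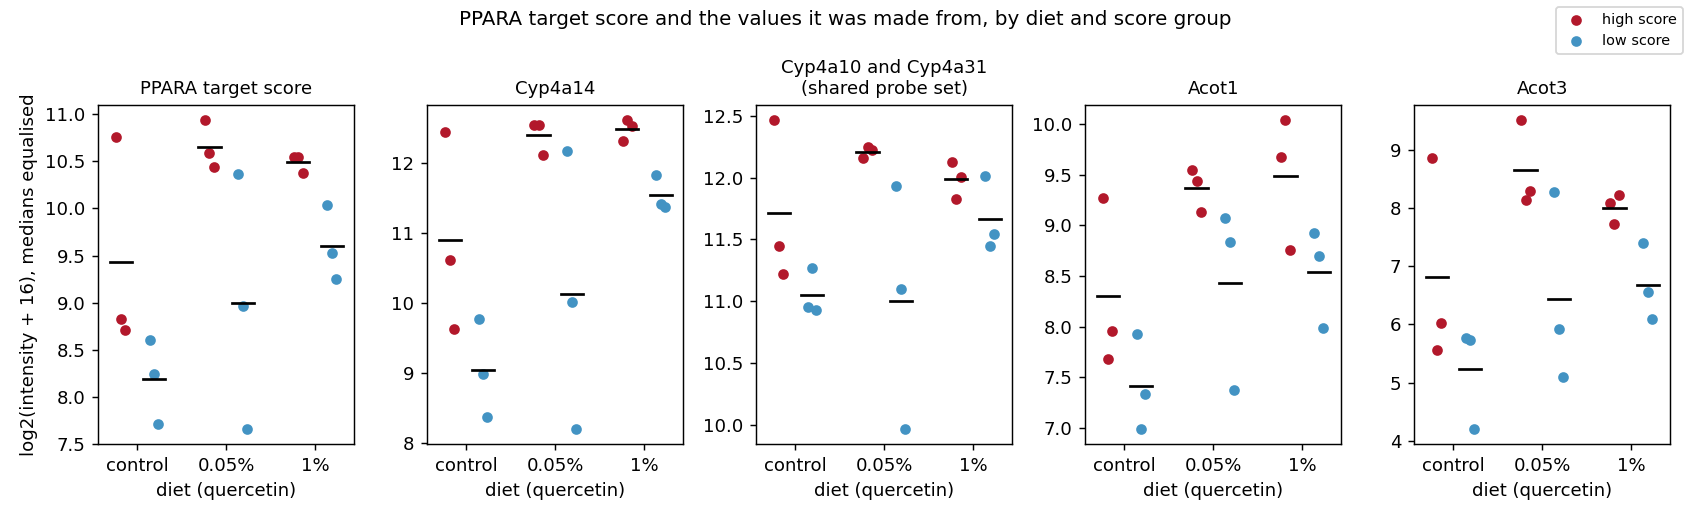
The score and the 4 values averaged in it, as log2(intensity + 16) with medians equalised, for each of 18 livers by diet, with high-score livers (red) left of low-score livers (blue) and a bar at the mean of 3. The high-score livers on the control diet are 1 at 10.76 and 2 at 8.83 and 8.71.

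The 4 values that chose the groups are given as a description, with no test. Cyp4a14 averaged 11.93 ± 1.06 in high-score livers and 10.24 ± 1.52 in low-score livers (SD, n = 9 each). The only probe set of Cyp4a10, which also reads its neighbour Cyp4a31, averaged 11.97 ± 0.40 in high-score livers and 11.24 ± 0.61 in low-score livers. Acot1 averaged 9.05 ± 0.79 in high-score livers and 8.13 ± 0.78 in low-score livers, and Acot3 averaged 7.82 ± 1.27 in high-score livers and 6.11 ± 1.19 in low-score livers. With diet means removed, these 4 values correlated with each other over the 18 arrays at r between 0.78 and 0.94. Near copies in the same gene clusters could share signal with them and were left untested as well. Among these the high minus low difference was 0.59 for the mitochondrial thioesterase Acot2, 0.62 for the peroxisomal Acot4 and 0.54 for Cyp4a31, while Acot6 (-0.38) and Cyp4a12a (-0.32) were lower in high-score livers.

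The first question was which other genes separated the groups once diet was taken into account. No gene did: by limma with diet as block, 0 of 12877 genes (0%) had a Benjamini-Hochberg adjusted p under 0.05. At an unadjusted p under 0.05 there were 1179 genes, or 9.16%, of which 619 (4.81%) were higher and 560 (4.35%) lower in high-score livers. The genes with the smallest p had an adjusted p of 0.428 or 0.446. All differences between the groups that follow are therefore differences that did not pass the test.

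Among the 10 smallest p in each direction, Abcc2, which exports conjugates into bile, had its lowest, median and highest level at 10.18, 10.47 and 10.83 in high-score livers, against 8.93, 9.91 and 10.33 in low-score livers. Its difference was 0.62 ± 0.13 (SE, limma adjusted p = 0.428), and the groups overlapped between 10.18 and 10.33. Vnn1, a pantetheinase known as a PPARA target, lay at 9.28, 10.61 and 11.53 in high-score livers, against 8.87, 9.50 and 10.65 in low-score livers, a difference of 1.04 ± 0.26. Rad51b, a DNA repair gene, had the largest difference of these 10, 1.40 ± 0.31. The other higher genes were 4632427E13Rik, Ssc4d, Leng8, Msi2, Serf1, Zdhhc20 and Plscr4, with differences between 0.30 and 0.55. Other probe sets of 4632427E13Rik had 0.13 and 0.13, those of Msi2 had 0.07 to 0.61, those of Serf1 0.19, 0.30 and 0.22, and those of Zdhhc20 0.29 and 0.03.

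In the other direction Cyp2c70, which makes muricholic acids in mice, lay at 11.17, 11.78 and 12.64 in high-score livers, against 11.85, 12.59 and 12.90 in low-score livers. Its difference was -0.69 ± 0.17 (limma adjusted p = 0.446). Mup10, a major urinary protein, differed by -0.73 ± 0.17, and Cd207, the lectin langerin, by -0.93 ± 0.22. The other lower genes were Taf1c, 2810408I11Rik, Gulp1, Tfec, Lrp2, Ppil4 and Tmed8, with differences between -0.82 and -0.34. A second probe set of Tmed8 had the opposite sign (0.11), and those of Lrp2 had -0.60 and -0.02. Of the genes plotted by group, Ehhadh, the bifunctional enzyme of peroxisomal beta-oxidation, differed by 0.46 ± 0.13 and complement component C2 by -0.53 ± 0.14.

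**Figure D2:**
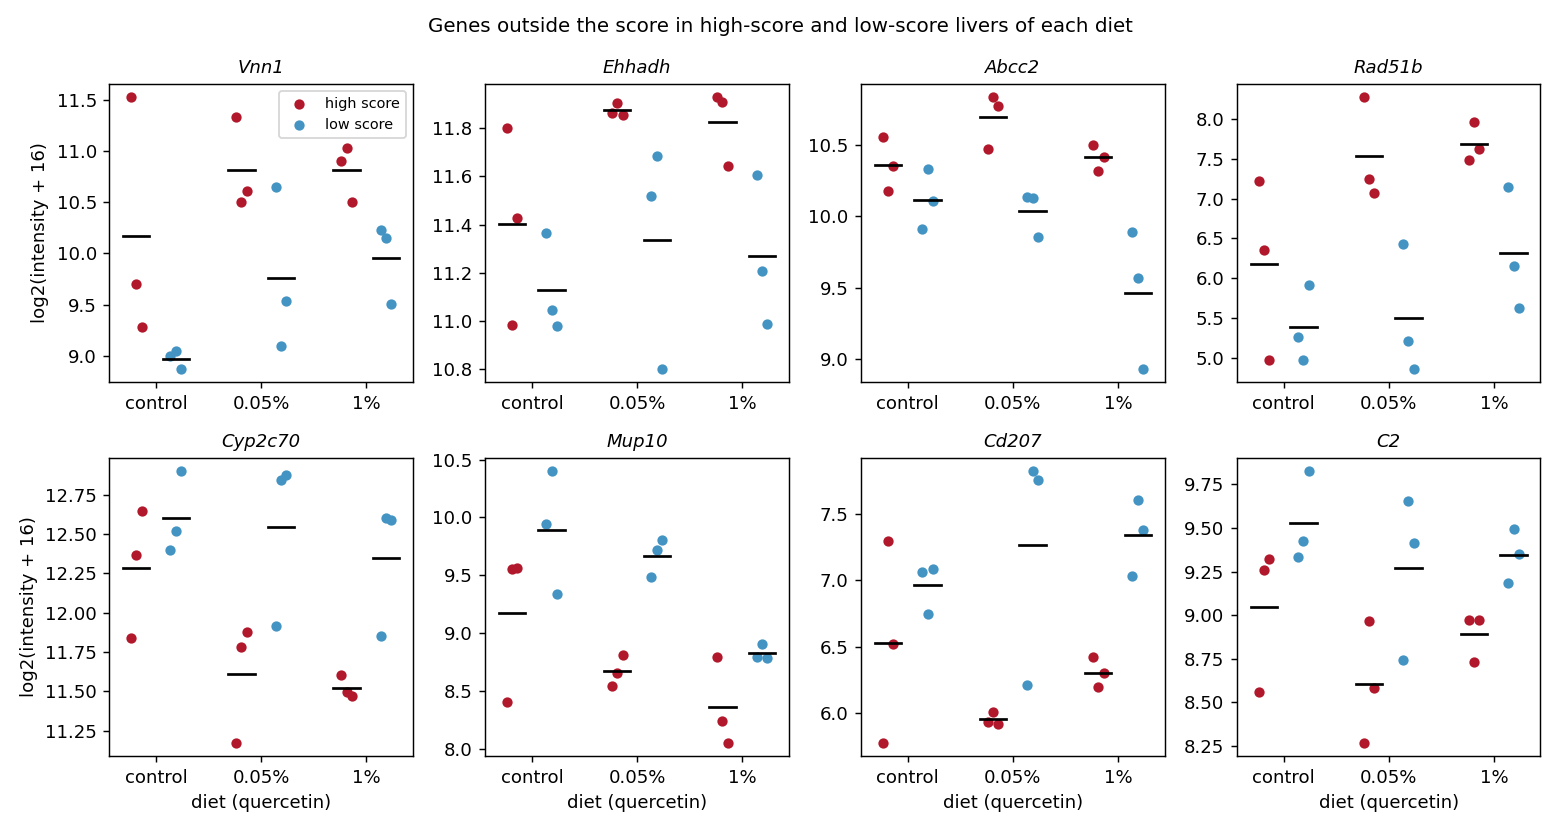
Log2(intensity + 16) of 8 genes outside the score in each of 18 livers by diet, with high-score livers (red) left of low-score livers (blue) and a bar at the mean of 3. Vnn1, Ehhadh, Abcc2 and Rad51b have the higher mean in high-score livers in each of the 3 diets, and Cyp2c70, Mup10, Cd207 and C2 the lower mean.

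Taken as 3 separate comparisons of 3 against 3, the groups gave 0, 0 and 1 gene in control, 0.05% and 1% quercetin livers. The unadjusted shares were 3.08%, 6.55% and 7.16%. The single gene, named after its value was seen, was Prorp, a subunit of mitochondrial RNase P, with a difference of -0.93 on 1% quercetin (limma adjusted p = 0.0429, 0.00777% of genes). No gene's difference varied between the diets at an adjusted p under 0.05 (F test in limma), and 435 (3.38%) did so at an unadjusted p under 0.05.

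Because the groups cut across a graded score, each gene was also fitted to the score itself, again with diet as block. The slope is the change in a gene's log2 level per 1 log2 unit of score among livers on the same diet. With it 662 of 12877 genes (5.14%) had a limma adjusted p under 0.05: 338 (2.62%) rose and 324 (2.52%) fell with the score. These calls leaned on a pair of livers at the ends of the score. Without control replicate 3, the highest control score, 292 genes passed, and without 0.05% quercetin replicate 2, the lowest of all scores, 244 passed. Without both, 18 passed, and the median standard error of a slope was then 0.10, against 0.06 with all 18 arrays. A total of 134 genes (1.04%), 63 rising and 71 falling, passed in each of the 18 fits that left out 1 liver.

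**Figure D3:**
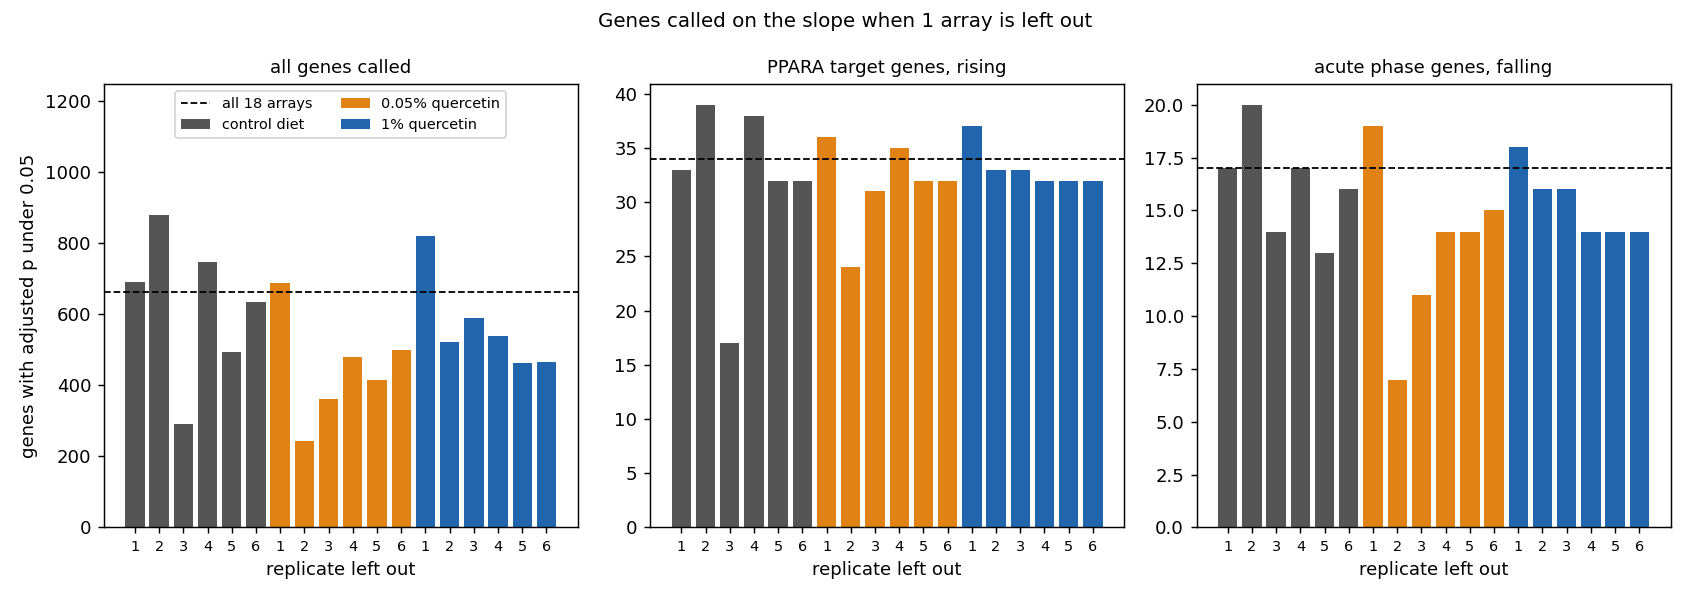
Number of genes with a limma adjusted p under 0.05 for the slope on the score when 1 of 18 arrays is left out (bars, by diet and replicate number), with the number on all 18 arrays dashed. Left to right are all genes, genes of the PPARA target lists that rose and genes of the acute phase list that fell; leaving out control replicate 3 gave 292, 17 and 14, and leaving out 0.05% quercetin replicate 2 gave 244, 24 and 7.

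A measure of RNA integrity correlated with the score without passing the test after adjustment. The log2 ratio of the 3′ to the 5′ control probe sets of Gapdh ran from -0.32 to 0.07 and correlated with the score, both with diet means removed, at Pearson r = -0.58 (permutation p = 0.0275, adjusted over 3 measures 0.0824) and Spearman rho = -0.51 (permutation p = 0.0572, adjusted 0.172) over 18 arrays. Without control replicate 3 and 0.05% quercetin replicate 2, r was -0.34. Within the 3 diets r was -0.50, -0.88 and 0.21. With this ratio as a covariate 36 genes passed on the slope. Between the groups the ratio averaged -0.14 ± 0.12 in high-score livers and -0.15 ± 0.11 in low-score livers (exact permutation p = 0.935 within diets, two-sided, adjusted 0.935). The same ratio of Actb and the deposited array median correlated with the score at r = 0.12 and 0.33 (permutation p = 0.617 and 0.226, adjusted 0.617 and 0.34), with rho = 0.04 and 0.29 (permutation p = 0.866 and 0.286, adjusted 0.866 and 0.429). Without the same 2 livers their r was 0.23 for Actb and 0.23 for the array median, and within the 3 diets r of the array median was -0.37, 0.86 and 0.08.

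Genes of fatty acid oxidation and of related PPARA functions, in 6 lists of 106 tested genes, gave 34 that rose with the score and 0 that fell, against 2.62% and 2.52% of all genes. Their median slope was 0.12, and 48.4% of all genes had a slope above 0. The slope was above 0 in all 3 diets for 65 of the 106, against 21% of all genes, and below 0 in all 3 for 7, against 19.8%. Between the groups, 79 of the 106 were higher in high-score livers (49.2% of all genes), 28 of them at an unadjusted p under 0.05 (background 4.81%), and 2 were lower at that level (background 4.35%). The median slope in control, 0.05% and 1% quercetin livers was 0.12, 0.09 and 0.18. In control livers without replicate 3 it was 0.0019, with 53 of 106 above 0. The count of 34 was 17 without control replicate 3, 3 without both end livers and 10 with the Gapdh ratio as a covariate.

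Peroxisomal beta-oxidation, which shortens very long fatty acids, had 9 of 21 tested genes rising with the score (background 2.62%). Abcd2, a transporter of very long-chain fatty acids into peroxisomes, lay at 4.41, 5.60 and 7.78 in high-score livers, against 4.40, 4.65 and 6.52 in low-score livers. It had the steepest slope of the list, 0.93 ± 0.14 (limma adjusted p = 0.00187). Its low-score median of 4.65 was below the filter at 4.69 and near the floor. Ehhadh lay at 10.98, 11.85 and 11.93 in high-score livers, against 10.80, 11.21 and 11.68 in low-score livers, and its slope was 0.32 ± 0.05 (adjusted p = 0.00278). Both ranges overlapped between the groups. Ech1, an isomerase of unsaturated intermediates, had a slope of 0.25 ± 0.03 and Pex11a, which drives division of peroxisomes, one of 0.31 ± 0.05, and Decr2, Pex19, Crat, Acot12 and Hacl1 rose as well.

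Mitochondrial beta-oxidation had 8 of 20 tested genes rising (background 2.62%), all with shallow slopes. Eci1, which moves double bonds in unsaturated fatty acyl chains, lay at 10.93, 11.32 and 11.59 in high-score livers, against 10.74, 11.03 and 11.45 in low-score livers, and its slope was 0.24 ± 0.03 (limma adjusted p = 0.00104). Decr1 rose at 0.17 ± 0.03, Acadm, the medium-chain dehydrogenase, at 0.15 ± 0.03, and Etfdh, Cpt2, Slc25a20 and Hadha at 0.13 to 0.19. The call of Acadm was lost without control replicate 3 (adjusted p = 0.0835). Acadl, the long-chain dehydrogenase, rose at 0.18 ± 0.03, while its other probe set had a slope of -0.08. Cpt1a, which commits fatty acids to mitochondria, had a slope of 0.00 (adjusted p = 1), and its other probe sets had 0.17 and 0.05.

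Of 5 tested genes of ketone body metabolism, Bdh1 (0.31 ± 0.06) and Acat1 (0.19 ± 0.04) rose (background 2.62%). Both lost the call without control replicate 3. Other probe sets of Acat1 had slopes of 0.43 and 0.30. Fgf21, a fasting hormone of the liver, lay at 6.21, 8.05 and 9.78 in high-score livers, against 5.73, 6.91 and 9.12 in low-score livers. Its slope of 0.72 ± 0.23 missed the threshold (limma adjusted p = 0.0742), with 0.42, 0.56 and 2.63 in control, 0.05% and 1% quercetin livers. Those values did not differ between diets at the threshold (adjusted p = 0.6).

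Uptake and binding of fatty acids held the steepest slopes of the PPARA lists after Abcd2, with 4 of 18 tested genes rising (background 2.62%). The fatty acid translocase Cd36 lay at 7.37, 9.22 and 10.34 in high-score livers, against 7.52, 7.83 and 9.08 in low-score livers, and its slope was 0.79 ± 0.10 (limma adjusted p = 0.000481). The receptor Vldlr, which takes up triglyceride-rich lipoproteins, lay at 4.32, 5.79 and 7.05 in high-score livers, against 4.23, 4.78 and 6.26 in low-score livers, with a slope of 0.82 ± 0.09 (adjusted p = 0.000411). The low-score median of Vldlr, 4.78, was close to the filter at 4.69, and a second Vldlr probe set had a slope of 0.34. In both genes the 6 high-score livers on quercetin stood above most low-score livers, while the 2 control high-score livers other than replicate 3 (Cd36 at 7.96 and 7.37, Vldlr at 4.32 and 4.59) stayed below the highest control low-score liver. Fabp2 (0.51 ± 0.09) and Acsm3 (0.31 ± 0.07) rose too. The slope of Fabp1, the main fatty acid binding protein of liver, was -0.02 (limma adjusted p = 0.801, second probe set -0.14).

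**Figure D4:**
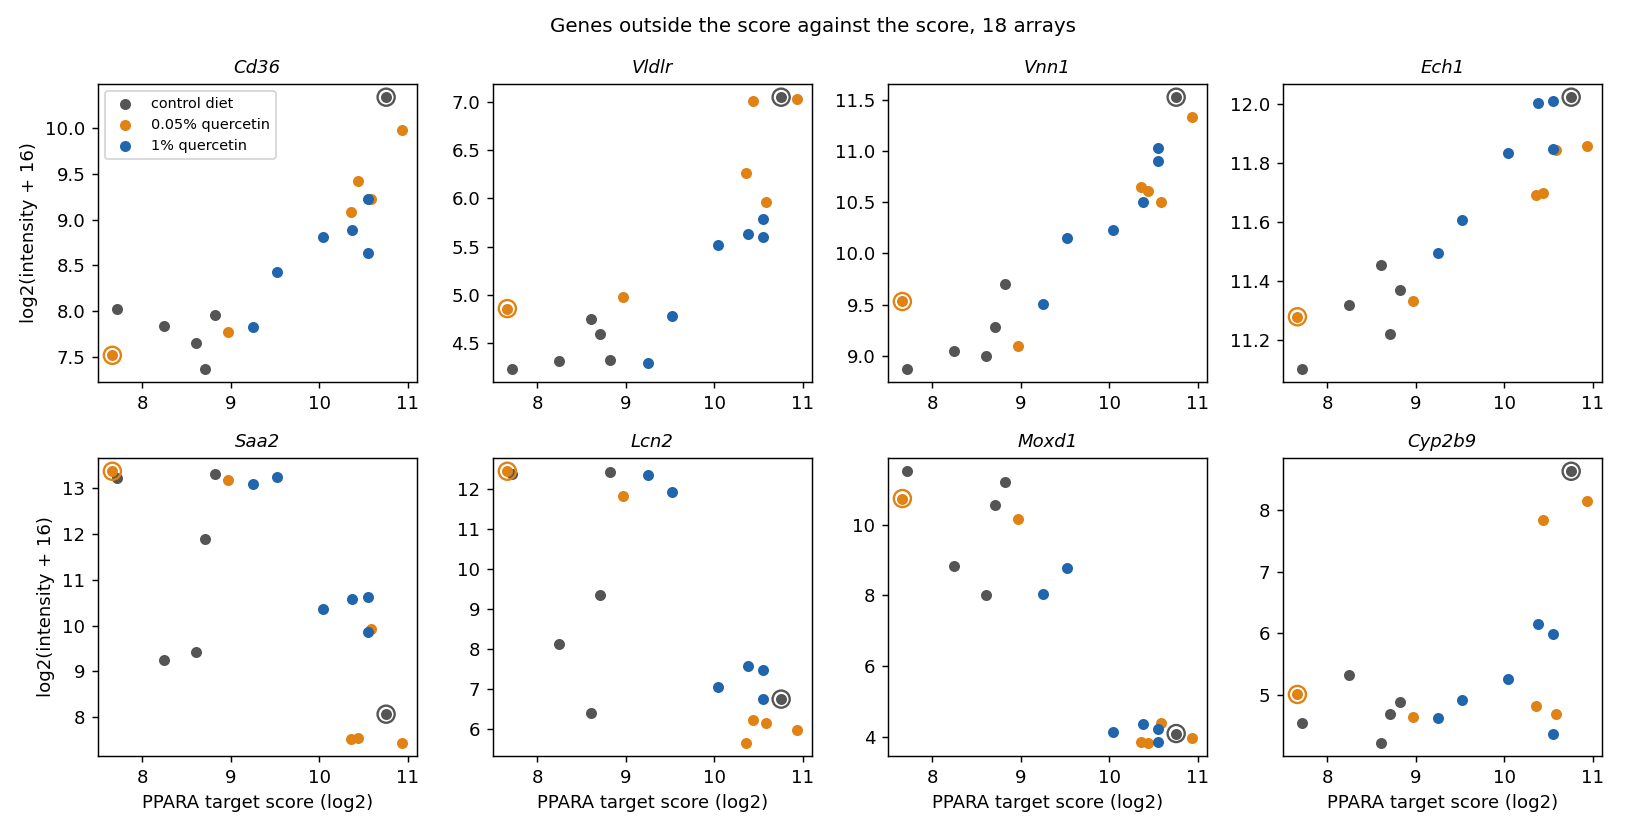
Log2(intensity + 16) of 8 genes outside the score against the score, 1 point per liver, coloured by diet, with control replicate 3 and 0.05% quercetin replicate 2 ringed. Cd36, Vldlr, Vnn1 and Ech1 are higher at high scores, Saa2, Lcn2 and Moxd1 lower, and Cyp2b9 is above 7 in 3 livers, all of which score 10.44 or more.

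Lipid droplet genes rose in 4 of 16 cases (background 2.62%). These were the acid lipase Lipa (0.24 ± 0.04), Fitm1 (0.35 ± 0.08) and the droplet-fusing Cidea (0.53 ± 0.12) and Cidec (0.63 ± 0.18). Fitm1 and Cidea lost the call without control replicate 3, and Cidec kept it in 7 of the 18 fits without 1 liver. The low-score median of Cidea, 4.65, was below the filter at 4.69. Plin2, which coats lipid droplets, had a slope of 0.04 (limma adjusted p = 0.745). Of 26 other PPARA targets 7 rose (background 2.62%). They were led by Vnn1 (0.73 ± 0.09, limma adjusted p = 0.000481), the fatty aldehyde dehydrogenase Aldh3a2 (0.54 ± 0.06) and the acyltransferase Mogat1 (0.54 ± 0.09). Retsat, Fads1, Nudt19 and Tmem135 were the others.

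Ppara itself lay at 9.47, 10.05 and 10.62 in high-score livers, against 9.10, 9.90 and 10.79 in low-score livers, and its slope was 0.14 ± 0.07 (limma adjusted p = 0.298). Its partner Rxra had a slope of -0.09 (adjusted p = 0.243, second probe set 0.04). The coactivator Ppargc1a had one of 0.24 (adjusted p = 0.339, other probe sets 0.06 to 0.21). Targets that missed the threshold included Pdk4 (0.46, adjusted p = 0.0709), a brake on glucose oxidation, Acaa1b (0.14, adjusted p = 0.079) and Creb3l3 (-0.02, adjusted p = 0.819). Angptl4, an inhibitor of lipoprotein lipase, missed it too (0.06, adjusted p = 0.871, second probe set -0.06).

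Genes of the acute phase response, plasma proteins that the liver makes in inflammation, gave 17 of 26 that fell with the score and 0 that rose. Among all genes 2.52% fell and 2.62% rose. The median slope was -0.47, with -0.26, -0.55 and -0.81 in control, 0.05% and 1% quercetin livers. All 26 had lower means in high-score than in low-score livers, while 49.2% of all genes had higher means. Only 2 of the 26 were lower at an unadjusted p under 0.05 (background 4.35%). Serum amyloid Saa2 lay at 7.44, 9.92 and 13.30 in high-score livers, against 7.51, 13.10 and 13.37 in low-score livers. Its slope was -1.78 ± 0.33 (limma adjusted p = 0.00508). Lcn2, an iron-scavenging lipocalin, lay at 5.98, 6.75 and 12.44 in high-score livers, against 5.66, 11.83 and 12.46 in low-score livers, with a slope of -2.20 ± 0.43 (adjusted p = 0.00668).

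Saa2 was above 13 in 6 livers: 1 high-score liver, control replicate 4, and 5 low-score livers. Low-score livers were also among the lowest, with 7.51 in 0.05% quercetin replicate 6. On the control diet the mean of the acute phase list was 9.97, 12.02 and 11.17 in the high-score livers, against 10.02, 10.29 and 12.04 in the low-score livers. On 0.05% quercetin it was 10.03, 9.80 and 9.78 in the high-score livers, against 12.15, 11.74 and 9.69 in the low-score livers. On 1% quercetin it was 11.10, 10.43 and 10.55 in the high-score livers, against 10.80, 11.95 and 11.90 in the low-score livers. The score groups overlapped in each diet. Orm2 (-1.75 ± 0.32), Saa1 (-1.18 ± 0.21), Orm1 (-0.33 ± 0.05) and Itih3 (-0.30 ± 0.05) fell in each fit without 1 liver, and Saa3 (-1.67 ± 0.34) lost the call without 0.05% quercetin replicate 2 (adjusted p = 0.0763). The metallothioneins Mt1 and Mt2, zinc-binding proteins that inflammation induces, both fell at -1.97. Mt1 kept the call in 15 and Mt2 in 8 of the 18 fits without 1 liver, and a second Mt1 probe set had a slope of -0.32. Among the acute phase genes named here, 6 had higher means in high-score livers on the control diet. These were Mt2 (2.05), Mt1 (1.81), Lcn2 (0.54), Saa2 (0.46), Saa3 (0.16) and Saa1 (0.05). Itih3 (-0.19), Orm1 (-0.15) and Orm2 (-0.05) had lower means there.

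The count of 17 was 7 without 0.05% quercetin replicate 2, 0 without both end livers and 0 with the Gapdh ratio as a covariate. With the acute phase mean of each liver as a covariate 0 of 12877 genes passed on the slope, PPARA targets included, and the median standard error was then 0.09. Also among the 10 steepest falling slopes were the chemokine Cxcl1 (-1.33 ± 0.24), the trefoil peptide Tff3 (-1.47 ± 0.20) and the ferritin receptor Scara5 (-1.43 ± 0.26, second probe set -0.27). Complement and coagulation had 9 of 28 falling (background 2.52%) and 0 rising. Among the 9 were C8b (-0.53 ± 0.08) and C9 (-0.30 ± 0.05) of the membrane attack complex and C2 (-0.37 ± 0.05) of the classical pathway. In the interferon list 2 of 22 fell (background 2.52%), Ifi47 (-0.59 ± 0.10) and the immunoproteasome subunit Psmb8 (-0.20 ± 0.05), which kept the call in 8 of the 18 fits without 1 liver.

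Some genes with sex-biased expression in mouse liver, set there by the pattern of growth hormone release, passed the test on the slope. Of 13 tested male-biased genes 5 fell (background 2.52%) and 0 rose, and of 10 female-biased genes 3 rose (background 2.62%) and 0 fell. The median slope in control, 0.05% and 1% quercetin livers was -0.31, -0.14 and -0.02 for the male-biased list and 0.11, 0.02 and -0.01 for the female-biased list. The monooxygenase-like Moxd1 had the steepest slope of all called genes, -2.53 ± 0.30 (limma adjusted p = 0.000411), and lay at 3.83, 4.22 and 11.21 in high-score livers, against 3.84, 8.76 and 11.51 in low-score livers. It was between 3.83 and 4.39, below the filter at 4.69, in 9 livers, 7 with high and 2 with low score. It stood far above that in the other 9, 2 with high and 7 with low score. Ugt2b38 (-0.89 ± 0.15), the oxysterol hydroxylase Cyp7b1 (-0.49 ± 0.07), C6 (-0.45 ± 0.08) and C8a (-0.31 ± 0.05) fell as well. Abcd2, also a peroxisomal list member, Hao2 (0.77 ± 0.14) and Cyp2b9 (0.92 ± 0.26) were the female-biased genes that rose. Cyp2b9 kept the call in 8 of the 18 fits without 1 liver. Hao2 averaged 5.54 in high-score and 4.59 in low-score livers, so it passed the filter at 4.69 only through the high-score livers. Its rise is therefore given as a description, and the count of 3 of 10 includes it. Cux2, a female-biased repressor, had a slope of 0.00 (adjusted p = 0.976). Mean levels of the male-biased list on the control diet were 9.84, 11.09 and 11.18 in high-score livers, against 11.07, 10.93 and 11.24 in low-score livers, so that control replicate 3 alone stood below the rest.

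**Figure D5:**
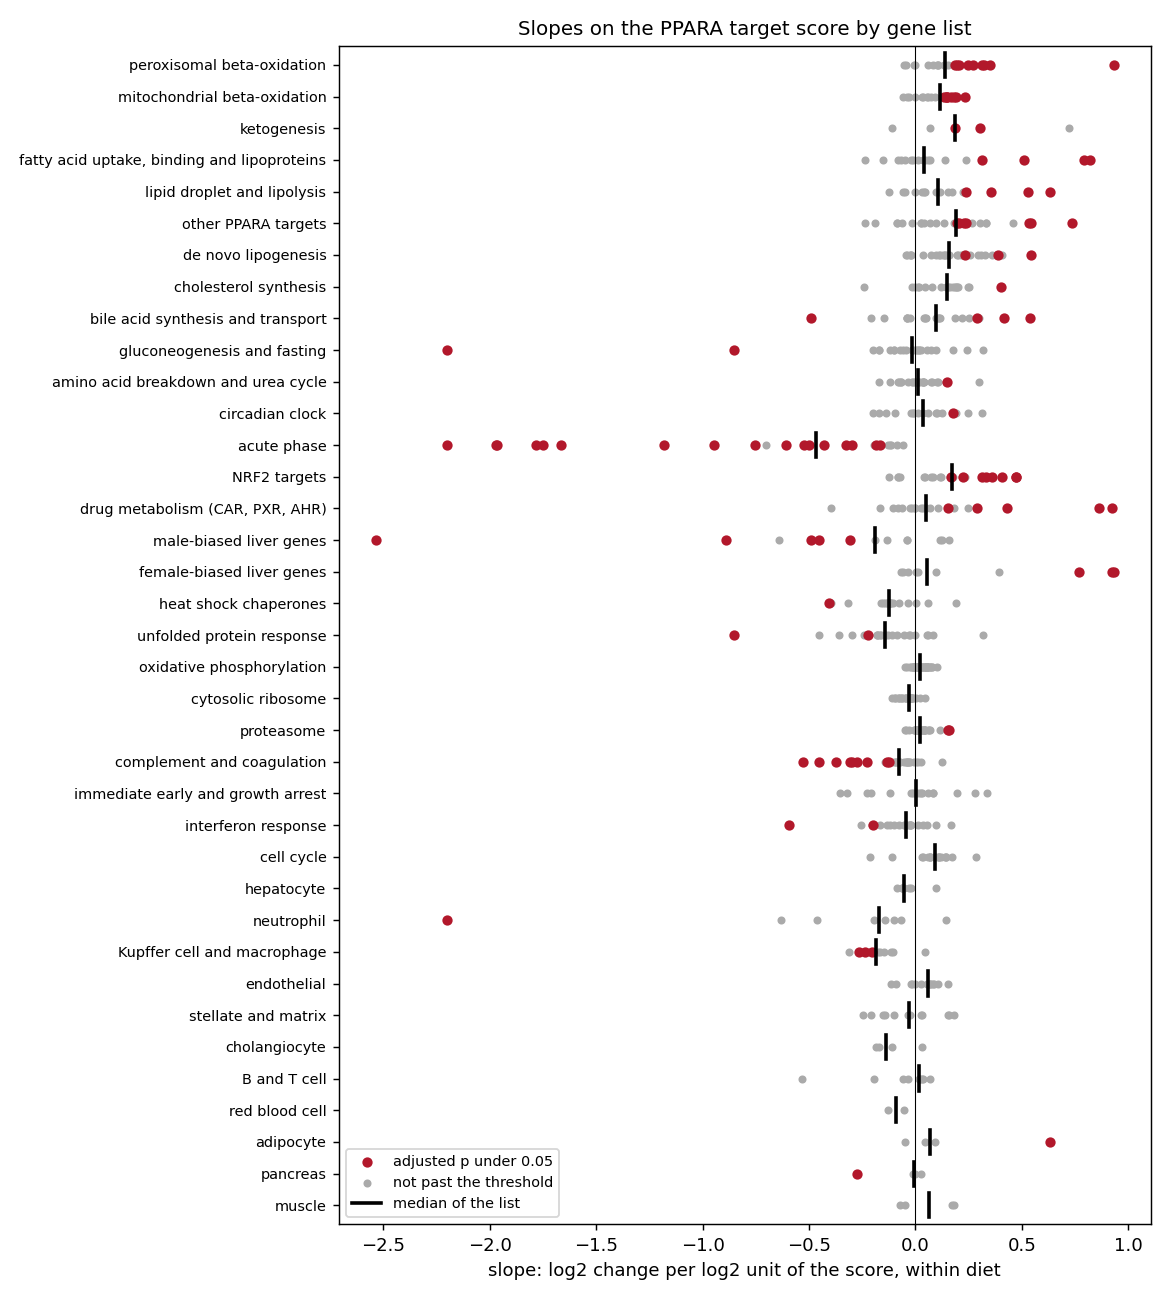
Slopes on the score (change in log2 level per log2 unit of score within diet) of the tested genes of 37 lists, 1 point per gene, red where the limma adjusted p was under 0.05, with the median of each list as a black bar. The acute phase list has its median at -0.47 and the 6 lists of PPARA targets, at the top, have no red point below 0.

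Genes of detoxification rose in part. Of 25 tested NRF2 targets, which answer oxidative and electrophilic stress, 8 rose (background 2.62%) and 0 fell, with a median slope of 0.17. Mgst3 had 0.47 ± 0.06 (limma adjusted p = 0.00104) but 0.10 on its other probe set. The glutathione transferase Gsta2 had 0.47 ± 0.10, Cbr1 0.31 ± 0.06 and the quinone reductase Nqo1 0.22 ± 0.05. Gsta2 and Cbr1 lost the call without 0.05% quercetin replicate 2. Of the 8 genes, 2 kept it in each of the 18 fits without 1 liver. Of 23 genes of drug metabolism 5 rose (background 2.62%) and 0 fell. The largest slopes were in Cyp2b9 and Cyp2c38 (0.86 ± 0.10, adjusted p = 0.000411), with smaller ones in the receptor Nr1i3 (0.29 ± 0.07) and in Cyp2b10 (0.43 ± 0.11). Cyp2b10 averaged 4.55 in low-score livers and passed the filter at 4.69 only through the high-score livers. Its rise is therefore given as a description, and the count of 5 of 23 includes it. Nr1i3 kept the call in 15 and Cyp2b10 in 13 of the 18 fits without 1 liver. Of 21 genes of bile acid synthesis and transport 3 rose (background 2.62%) and 1 fell, Cyp7b1 (background 2.52%). Those that rose were the transporters Abcc3 (0.42 ± 0.07), Slco1a4 (0.54 ± 0.12) and Abcc2 (0.29 ± 0.08). Slco1a4 lost the call without control replicate 3, and Abcc2 kept it in 3 of the 18 fits without 1 liver.

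Of 30 genes of de novo lipogenesis 3 rose (background 2.62%), Mogat1, Elovl2 (0.23 ± 0.05) and Me1 (0.39 ± 0.09). Elovl2 kept the call in 16 and Me1 in 14 of the 18 fits without 1 liver. In this list 25 of 30 slopes were above 0 (48.4% of all genes), with a median of 0.16. The median was 0.15, 0.24 and -0.05 in control, 0.05% and 1% quercetin livers. In all 3 diets 13 of the 30 slopes were above 0, against 21% of all genes. Between the groups 17 of the 30 were higher in high-score livers, against 49.2% of all genes. Fasn, fatty acid synthase, had a slope of 0.41 (limma adjusted p = 0.228), its regulator Srebf1 0.29 (adjusted p = 0.495), the desaturase Scd1 -0.04 (adjusted p = 0.563, second probe set 0.25) and the phosphatase Lpin1 0.20 (adjusted p = 0.48). Of 20 genes of cholesterol synthesis 1 rose (background 2.62%), Hmgcs1 (0.40 ± 0.09), which lost the call without control replicate 3. Here 17 slopes were above 0 (48.4% of all genes), with a median of 0.15. The median was 0.11, 0.25 and -0.28 in control, 0.05% and 1% quercetin livers. In all 3 diets 7 of the 20 slopes were above 0, against 21% of all genes. Cyp7a1, which opens the classic route to bile acids, had -0.21 (adjusted p = 0.506), and the clock genes Dbp and Arntl had 0.10 and -0.02 (adjusted p = 0.904 and 0.938). Of 17 clock genes 1 rose (background 2.62%), the nuclear receptor Rora (0.18 ± 0.05, limma adjusted p = 0.0348), which kept the call in 11 of the 18 fits without 1 liver. Other probe sets of Rora had slopes from -0.08 to 0.24. No gene passed in oxidative phosphorylation (47 tested), cytosolic ribosome (23), cell cycle (19) or immediate early genes (19). The unfolded protein response had 2 of 25 falling (background 2.52%), the asparagine synthetase Asns (-0.85 ± 0.19) and the transcription factor Xbp1 (-0.22 ± 0.05). Both kept the call in 16 of the 18 fits without 1 liver. Heat shock chaperones had 1 of 18 falling (background 2.52%), Hspb8 (-0.40 ± 0.09), of which another probe set had a slope of 0.07. The call of Hspb8 held in 16 of the 18 fits without 1 liver. For lists with 1 or 2 called genes nothing is concluded about the list, and not all such lists are named.

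Other genes with the steepest rising slopes were Rgs16 (1.24 ± 0.32), an inhibitor of G protein signalling that lost the call in 7 of the 18 fits without 1 liver, the organic anion transporter family member Slc22a29 (0.95 ± 0.13), Rad51b (0.90 ± 0.13) and the noncoding Hectd2os (0.86 ± 0.20). Hectd2os lost the call without control replicate 3. Slopes did not differ between the 3 diets at the threshold for any gene (F test in limma), and 921 genes (7.15%) did so at an unadjusted p under 0.05.

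Markers of resident liver macrophages, the Kupffer cells, had lower means in high-score livers for 11 of 12 tested genes. Of all genes, 49.2% had higher means there. With the score 3 of the 12 markers fell (C1qb, Vsig4 and Cd5l, slopes -0.27 to -0.20, background 2.52%). The slope was below 0 in all 3 diets for 11 of the 12, against 19.8% of all genes, and the median slope was -0.19. C1qb lost the call without control replicate 3 and had slopes of -0.12 and -0.18 on its other probe sets, and Vsig4 kept the call in 15 and Cd5l in 11 of the 18 fits without 1 liver. The summed level of the list, in units of intensity, ran from 5459 to 8450 in high-score livers, against 6345 to 10863 in low-score livers. Clec4f, a defining Kupffer cell marker, had a slope of -0.18 (limma adjusted p = 0.0658). Of 8 neutrophil markers 1 fell (background 2.52%), Lcn2, which hepatocytes also make. The neutrophil proteins S100a8 and S100a9 had slopes of -0.63 and -0.46 (adjusted p = 0.113 and 0.249), while Ltf, Camp, Retnlg and Cxcr2 were not tested. The summed level of the neutrophil list ran from 189.1 to 6960 in high-score livers and from 247.4 to 6544 in low-score livers. That sum includes Lcn2, so it is not a measure of neutrophils alone. Cidec of the adipocyte list rose (background 2.62%) and Cela2a of the pancreas list fell (-0.28 ± 0.07, background 2.52%), 1 of 4 tested in each. Cela2a averaged 4.57 in high-score livers and passed the filter at 4.69 only through the low-score livers, so its fall is given as a description. The summed adipocyte level ran from 9717 to 14609 in high-score livers and from 8851 to 13843 in low-score livers. The pancreas level ran from 315.6 to 540.8 in high-score livers and from 283.5 to 922.4 in low-score livers. The fat cell markers Adipoq, Lep, Retn, Cfd and Plin1 were not tested, and Cidec and Lipe are also in the lipid droplet list. Cpa1, Ctrb1, Pnlip and Amy2a5 of the pancreas list were not tested either. No endothelial, stellate, bile duct, lymphocyte, red cell or muscle marker passed. The part of these cells in the slopes was not tested.

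Promoters of the called genes were read for the element to which PPARA and RXRA bind, since these genes moved together. It was searched as 2 copies of AGGTCA in the same direction with 1 base between them, with at most 1 letter differing, on both strands of the 250 bases before the start (RefSeq, GRCm38.p6). It occurred in 3 of 269 rising genes (1.12%) and 1 of 269 falling genes (0.372%) with a promoter in the table, in 51 of 10406 tested genes (0.49%) and in 153 of 27025 genes in all (0.566%). The promoters listed for Acot1 and Acot3 held no match in this window. No promoter was available for Cyp4a14, Cyp4a10 or Cyp4a31, so these were not searched. Acot12, a thioesterase of the peroxisomal list with a slope of 0.20 ± 0.04 (limma adjusted p = 0.0115), is shown as the rising PPARA list member with a match, which is in capitals and read on the minus strand. The gene lies on the plus strand and the window is chr13:91741271-91741520.
Acot12: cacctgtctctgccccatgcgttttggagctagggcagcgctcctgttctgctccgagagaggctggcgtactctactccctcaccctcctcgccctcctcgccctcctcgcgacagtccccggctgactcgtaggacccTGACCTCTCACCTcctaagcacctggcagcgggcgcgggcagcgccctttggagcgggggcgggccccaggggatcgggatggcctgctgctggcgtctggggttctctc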

How the data were processed

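RNA of 18 livers was measured on Affymetrix mouse arrays. The deposited values are linear intensity per probe set, from software and with a scaling not given in the sources used here. Array medians as deposited ran from 14.17 to 21.92. Probe sets were named through the platform annotation, and 34741 were matched by gene ID to GRCm38.p6. To each value 16 was added before log2, the median of the tested genes was equalised (range of shifts 0.53), the probe set with the highest mean stood for a gene, and genes above the 40th percentile (log2 4.69) were tested. Comparisons used limma 3.58.1 in R 4.3.3 (lmFit, eBayes, diet as block), with Benjamini-Hochberg adjustment over 12877 genes, leaving out the score genes and their near copies. Technical measures were compared by exact permutation within diets and by correlation with 100000 permutations. The scale, filter, added value, probe set rule, score genes, covariates and each array left out were tried as alternatives. The method was tested on simulated data. The members and the gene lists were chosen with earlier results of these data known. Named genes were the 10 smallest p per direction where under 5 genes passed, the 10 largest slopes per direction, up to 3 called genes of each list and a preset list; applying this to the slope was decided after the group comparison was seen. Members of lists and genes with promoter matches beyond these were named after their values were seen. Probe sets cannot tell near-identical family members apart.

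Replicate numbers came from the sample titles.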

Additional observations from a re-analysis of the deposited data

Results flagged for a closer look

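A sample stood far from the other 5 of its diet, by Dixon's criterion at the 95% level, in 55 of 465 sets of values examined. Chance flags about 1 in 20 sets, but these include the score, its genes and genes named for steep slopes, so the count is not to be read against that rate. Control replicate 3 accounted for 34 of them, as the highest of its diet in 27 and the lowest in 7. It was highest in the score (10.76) and in the shared probe set of Cyp4a10 and Cyp4a31 (12.46). Among PPARA targets it was highest in Abcd2 (7.78), Acadl (11.66), Cd36 (10.34), Cidea (7.06), Cidec (6.54), Decr1 (11.59), Eci1 (11.59), Pex11a (10.21), Vldlr (7.05) and Vnn1 (11.53). It was also highest in Cbr1 (10.11), Cyp2b10 (6.25), Cyp2b9 (8.63), Cyp2c38 (9.93), Hao2 (7.01), Psma6 (11.47) and Slc22a29 (8.25). Its list means were highest for the 6 PPARA lists together (10.03), peroxisomal (11.03) and mitochondrial beta-oxidation (10.90), fatty acid uptake (9.78), lipid droplets (8.71), other PPARA targets (9.58), adipocyte markers (8.56) and female-biased genes (6.68). It was lowest in C6 (9.42), C8b (9.45), C9 (12.31), Cela2a (4.12), Cyp7b1 (11.28) and in the means of male-biased genes (9.84) and of complement and coagulation (11.28).

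The other 21 were spread over 10 livers. On 0.05% quercetin, replicate 2 was lowest in Acot1 (7.38), Cyp4a31 (6.48), Ehhadh (10.80), Msi2 (6.42), Pdk4 (6.90) and the clock list mean (7.22). Replicate 1 was lowest in the B and T cell mean (5.13), replicate 3 in 4632427E13Rik (6.26) and replicate 4 in Tmed8 (5.82), and replicate 4 was highest in the mean of amino acid breakdown (11.33). On 1% quercetin, replicate 1 was highest in the means of NRF2 targets (10.83), proteasome (10.62) and adipocyte markers (9.37). Replicate 4 was highest in the cell cycle mean (6.34) and lowest in Cyp7b1 (11.90) and the clock mean (7.07). Replicate 2 was lowest in C1qb (8.60), replicate 3 in Srebf1 (8.51), and replicate 5 was highest in the B and T cell mean (5.88). Control replicate 2 was highest in the clock mean (8.01) and in Tfec (6.11).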

How the results depend on the processing

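Between the groups 0 genes passed under each alternative run, and leaving out each array gave 0, except with the continuous score, which gave 662. The slope was run under alternatives chosen after seeing the data: 399 genes passed with values as deposited, 434 with the median of all probe sets equalised, 1321 with array weights, 1271 at an adjusted p under 0.10, 296 with the score from Cyp4a14 and the shared probe set, 383 with the deposited array median and 36 with the Gapdh ratio as covariate, 0 with the acute phase mean as covariate and 18 without both end livers. Leaving out 1 array gave 244 to 880, with 292 without control replicate 3 and 244, 363 and 416 without 0.05% quercetin replicates 2, 3 and 5. The PPARA count of 34 was 10 with the Gapdh ratio, 0 with the acute phase mean, 3 without both end livers and 17 to 39 without 1 array. The acute phase count of 17 was 11 without the diet block, 10 with the 2 Cyp4a probe sets as score, 0 with the Gapdh ratio, 0 with the acute phase mean, which holds these genes, 12 with the deposited array median, 0 without both end livers and 7 to 20 without 1 array. With the acute phase mean as covariate the slopes of Rgs16 (-0.33), Mt1 (0.28), Mt2 (0.40) and Bckdha (-0.014) turned in sign. Over all alternatives of the named genes' slopes, 3277 values kept side and direction, 466 lost the call and 38 gained it. Within diets, leaving out 1 array gave 0 to 2 genes on the control diet, 0 to 1 on 0.05% and 0 to 8 on 1% quercetin, where values as deposited, all medians equalised and no filter each gave 0. A score from Acot1 and Acot3 moved 2 arrays to the other group. The numbers in the titles were not taken as pairs, since 3 of 18 same-numbered pairs had deviations correlated above 0.1, and the replicate block gave 0 genes for the groups and 540 for the slope. The cause of these changes was not tested.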
